A study of Mus musculus with 24 samples.

Results

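The probes described here were the 100 most abundant of those that were detected nearly everywhere and at similar levels in retinal, renal and cardiac microvascular endothelial cells (retMECs, renMECs and carMECs) and in retinal neuronal cells, of the 20186 probes listed in any region. A probe was kept if it had 10 or more counts in at least 22 of the 24 regions, which held for 257 probes. For each cell type the median over its 6 regions of CPM (a probe's count as a share of its region's total, scaled to 1000000) plus 1 was then taken, and the largest of the 4 values had to be less than 3 times the smallest, which held for 193 of the 257. The 100 with the highest mean of the 4 values were kept and are called by their rank in that mean, rank 1 being the highest. The probes were thus chosen by their counts, level and evenness, which are given as a description without a test, while the choice did not use the diabetic and non-diabetic labels.

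Transcripts found at similar levels in unlike cells are usually those of cell maintenance, such as ribosomal proteins, cytoskeletal proteins, translation factors and enzymes of energy metabolism. Such transcripts serve as references against which other transcripts are set, so their own shift under a treatment bears on every scaled value. Endothelial cells of the retina form a tight barrier, those of the renal glomerulus are fenestrated and those of the heart form continuous capillaries. The files give each probe as an RTS number with no gene, and no table used here names a gene for any of them, so no gene, gene group or marker could be named or checked, and control probes could not be told from gene probes. Levels of different probes also depend on how well each probe binds, so a rank is an order of probe counts and not of transcript abundance.

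The mice were male C57BL/6J, 3 per group. Diabetic mice had received streptozotocin, a toxin of insulin-producing beta cells, in injections of 50 mg/kg over 5 days at 8 weeks of age, and non-diabetic mice received citrate buffer. Tissue was fixed in formalin and embedded in paraffin 2 months later. Probe barcodes were released with ultraviolet light from CD31+ regions chosen to hold microvessels of the retina, kidney and heart, and from NeuN+ regions of the retina, CD31 being an endothelial and NeuN a neuronal protein. Each of the 4 cell types had 3 non-diabetic and 3 diabetic regions. For regions 2 and 3 of the diabetic carMEC group the label gives the heart without naming MECs, and the labels tie no region to a mouse. In a captured region, fewer cells of a type and less RNA per cell cannot be told apart.

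Total counts ran from 28722 to 1451915 per region. Diabetic regions were shallower on average, without overlap in carMECs (115269 to 153319 against 211272 to 521366) and in neuronal cells (78053 to 168298 against 244551 to 788146). All 6 retMEC regions were on plate 1 and the other 18 on plate 2, so plate and retMECs cannot be told apart. In retMEC regions 39.9% to 61.0% of reads aligned to a barcode, in the others 79.4% to 96.7%. One library stood apart: in non-diabetic retMEC region 1 the 100 probes held 1.78% of 342522 counts, against 6.26% to 11.8% in the other 23 regions, and 89 of the 100 had their lowest CPM there. Values that rest on it are given with and without it.

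The level of the 100 probes, on the scale of the mean of the 4 cell-type values, fell steeply after the first. Rank 1 had a mean level of 39798, rank 2 of 3674, rank 3 of 3423, rank 4 of 2470 and rank 5 of 1693, and the median over the 100 was 345. The mean level of rank 1 was thus more than 10 times that of any other even probe. The last probe kept had a mean level of 247 and the first left out 246, so nothing separates the end of the list from the probes after it. The ratio of the largest to the smallest cell-type value ran from 1.24 to 2.99 with a median of 1.92. It was under 1.5 for 12 probes, under 2 for 57 and at 2.5 or more for 13. The smallest ratio that was refused was 3.00.

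**Figure D1:**
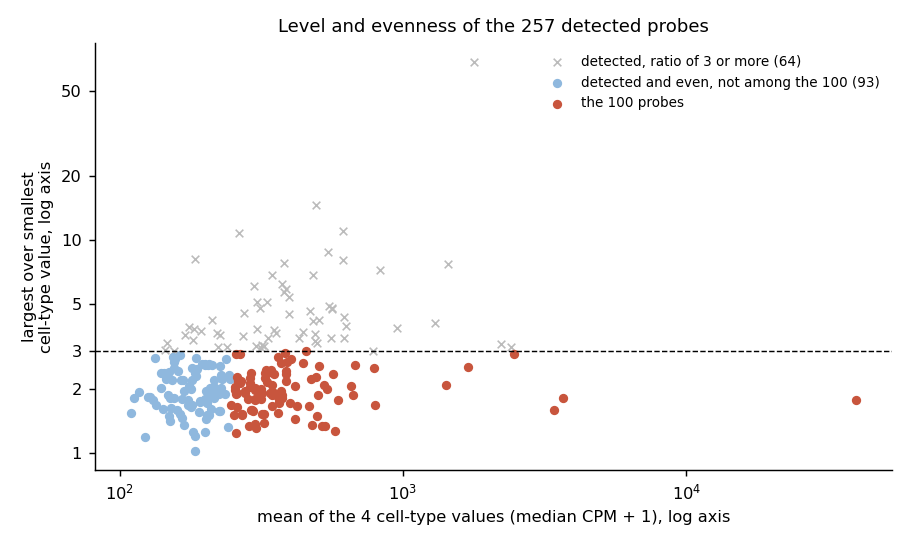
Level and evenness of the 257 detected probes. The horizontal log axis is the mean of the 4 cell-type values (median CPM plus 1), the vertical log axis the ratio of the largest to the smallest of them, each point is 1 probe, and the dashed line is the limit of 3. The 100 probes lie under the line and to the right of the even probes that were not kept, and rank 1 lies alone at 39798.

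Even did not mean equal. The highest of the 4 values was in retMECs for 48 probes, in renMECs and in neuronal cells for 25 each and in carMECs for 2. The lowest was in carMECs for 64, in neuronal cells for 23, in retMECs for 9 and in renMECs for 4. The most frequent pattern, retMECs highest and carMECs lowest, held for 33 probes. The most even probe, rank 95, had cell-type values of 257 in retMECs, 252 in renMECs, 234 in carMECs and 289 in neuronal cells. The least even, rank 26, had 208, 621, 569 and 424 in the same order, so that retMECs stood below the other 3. With the ratio taken over the 12 non-diabetic regions alone, 87 of the 100 were under 3, and over the 12 diabetic regions alone 84.

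Between regions the 100 probes varied more than the ratios of medians show. The coefficient of variation (CV, SD over mean) of CPM over the 24 regions had a median of 37.3% and ran from 24.3% for rank 80 to 83.5% for rank 34. Without non-diabetic retMEC region 1 the median was 34.1%. The 64 detected probes that failed the evenness limit had a median of 56.6%, a difference in part fixed by the rule. Within a group of 3 regions the median CV of the 100 probes was 60.8% in non-diabetic retMECs, or 21.1% over 2 regions without region 1, and 22.3% in diabetic retMECs. It was 11.7% and 15.7% in non-diabetic and diabetic renMECs, 13.6% and 14.2% in carMECs and 14% and 21.1% in neuronal cells. Counting error alone gives a median CV between 7.43% in non-diabetic renMECs and 21.7% in diabetic retMECs, so in the shallow groups the spread between regions was close to what the depth allows to be seen.

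Rank 80, with the smallest CV, had CPM values of 105, 304 and 422 in the non-diabetic and 419, 313 and 334 in the diabetic retMEC regions. Outside retMECs it ran from 195 to 333 CPM. Rank 34 (RTS0064941), with the largest CV, ran from 46.7 CPM in non-diabetic retMEC region 1 to 1759 CPM in diabetic renMEC region 2, and the other 5 renMEC regions had between 162 and 433 CPM. Its spread included a difference between the groups of neuronal cells, given with the diabetes comparison.

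The 100 probes were not spread evenly over the ID numbers. Members at most 50 listed IDs from the next member were joined into runs, a rule chosen after the numbers were seen, and 3 runs of 5 or more members held 64 of the 100. The first run held 50 members within 125 of the 20186 listed IDs. In that span 65 probes were detected in at least 22 regions and 0 of them failed the evenness limit. Its members had mean levels from 256 to 653, ranks from 11 to 97 and a median ratio of 1.80, and 37 of the 50 were highest in retMECs and 33 lowest in carMECs. The second run held 9 members within 89 listed IDs, among them ranks 3, 4, 5, 6 and 8, with a median ratio of 2.23. Of these, 7 were highest in neuronal cells and 7 lowest in carMECs. The third run held 5 members within 7 listed IDs, and in all 5 retMECs were highest and carMECs lowest. What the IDs of a run have in common was not tested, since no table used here says how the numbers were given.

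Members of a run moved together over regions. As a description over the 23 regions without non-diabetic retMEC region 1, which share their depths and compositions, the median correlation of log2(CPM + 1) between pairs was 0.52 in the first run, 0.86 in the second, 0.73 in the third and 0.11 among the 36 members outside runs.

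The first comparison asked whether the 100 probes shifted in diabetes in each cell type. Counts were tested with the quasi-likelihood test of edgeR, scaled to the 75th percentile of each region, with p-values adjusted by Benjamini-Hochberg over all probes tested. All 100 probes were tested in every cell type, and 17 of them passed an adjusted p of 0.05 in at least 1 cell type, 15 lower and 2 higher in diabetic regions. Of the 508 probes tested in all 4 cell types, the 100 included, 13.2% passed in at least 1 (11.8% lower and 1.38% higher), so the share among the 100 lay near that of the 508. Only 257 probes met the count rule of the 100, so the 508 also hold probes that did not meet it. In 7 of the 100 the call was made in 2 or more cell types, beside 8 of the 508 (1.57%), a count that includes the 7. Of the 17, 7 belonged to the second run and 0 to the first. Further shares of calls are over all probes tested, shallower ones included. In renMECs, carMECs and neuronal cells the 100 had smaller median SEs (0.21, 0.23 and 0.23) than all probes tested (0.30, 0.34 and 0.34). Counts and shares are therefore not at like power there.

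**Figure D2:**
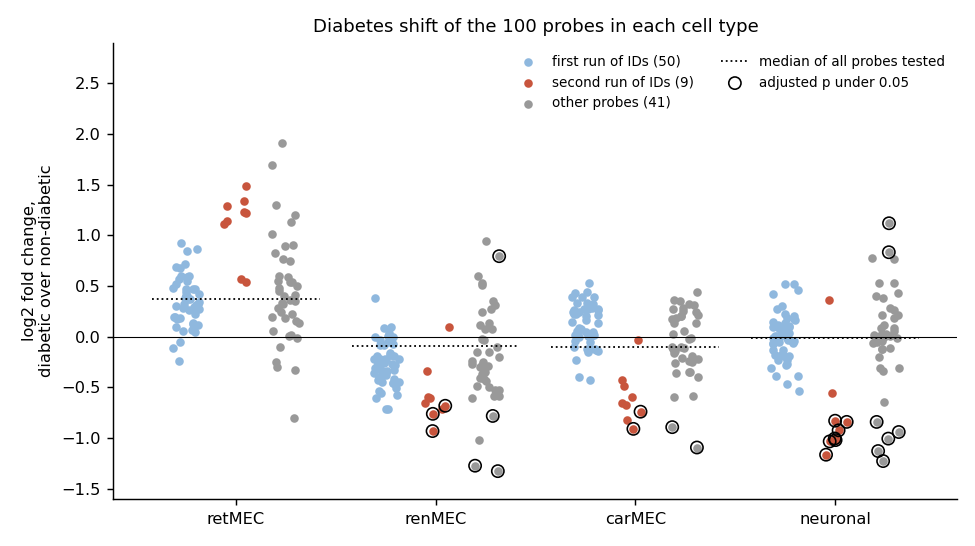
Diabetes shift of the 100 probes. The vertical axis is the log2 fold change of diabetic over non-diabetic regions from edgeR, the horizontal axis the cell type, each point is 1 probe with the colour of its run of IDs, black rings mark an adjusted p under 0.05, and dotted lines give the median of all probes tested. The 9 probes of the second run lie above 0 in retMECs, and 8 of the 9 lie below 0 in renMECs and neuronal cells.

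In retMECs none of the 100 probes was called, and 0 of all 699 probes tested were (0%). At an unadjusted p under 0.05, 2 of the 100 were higher and 0 lower, and DESeq2 also called 0. The median log2 fold change of the 100 was 0.40, beside 0.37 over all probes tested, and 91 of the 100 were above 0. Without non-diabetic retMEC region 1 the median was -0.03 and 45 of the 100 were above 0, so the upward shift rested on that library. Without non-diabetic region 3 the median was 0.82. In CPM, 18 of the 100 were higher in every diabetic than in every non-diabetic region (15.3% of all probes tested) and 0 were lower (0%). Without region 1, 18 were higher and 5 lower, beside 15.6% and 7.78% of the 257 detected probes.

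In renMECs the 100 probes were mostly lower in diabetic regions. The median log2 fold change was -0.28 beside -0.09 over all probes tested, and 79 of the 100 were below 0. With total counts alone the medians were -0.05 and 0.14, with 60 of the 100 below 0, so the scaling moved both medians, and the 100 lay below all probes tested by 0.19 on either scale. The test called 7 of the 100, 1 higher and 6 lower, beside 3.71% of the 9486 probes tested (0.464% higher and 3.25% lower). With total counts it called 5, 3 higher and 2 lower. Leaving out a region gave 2 calls without non-diabetic region 1 or 3, 3 without non-diabetic region 2 or diabetic region 1, 4 without diabetic region 3 and 10 without diabetic region 2. Between groups 13 probes were higher without overlap in CPM (13.5% of all tested) and 11 lower (7.65%).

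RTS0068813, rank 17, was the probe most clearly lower in diabetic renMECs. It had 1109, 1041 and 994 CPM in the non-diabetic and 468, 602 and 395 CPM in the diabetic renMEC regions, with groups that did not overlap. Its log2 fold change was -1.33 (SE 0.20, n = 3 regions per group, edgeR adjusted p = 0.000157), and it was called under all 14 alternatives run, with adjusted p from 1.24e-05 to 0.0215. Diabetic renMECs thus stood near the level of the other cell types, where the group means ran from 293 to 626 CPM and the probe was not called. RTS0077009, rank 23, was the 1 probe called higher in renMECs. It rose from 347 ± 48.0 to 697 ± 96.5 CPM (SD, n = 3), a log2 fold change of 0.79 (SE 0.20, edgeR adjusted p = 0.0189).

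In carMECs the median log2 fold change of the 100 was 0.02, beside -0.11 over all probes tested, and with total counts 0.17 beside 0.06. The 100 lay above all probes tested by 0.12 and 0.11 on the respective scales, and 55 and 72 of them were above 0. The test called 4 probes, all lower in diabetic regions, beside 0.924% of the 3247 tested (0.339% higher and 0.585% lower). These were rank 5 (log2 fold change -0.91, adjusted p = 0.00496), rank 76 (-1.09, adjusted p = 0.00502), rank 57 (-0.89, adjusted p = 0.0381) and rank 6 (-0.74, adjusted p = 0.0442), each by edgeR with n = 3 regions per group. Rank 5 had 1387, 1444 and 1043 CPM in non-diabetic and 698, 710.5 and 859 CPM in diabetic carMECs, and ranks 76, 57 and 6 did not overlap either. The calls depended on single regions, with 0 left without non-diabetic region 2, diabetic region 1 or diabetic region 2, 1 without diabetic region 3 and 6 without non-diabetic region 3, and DESeq2 called 0. With total counts 3 were called, 1 higher and 2 lower. In CPM 24 of the 100 were higher without overlap (7.95% of all tested) and 5 lower (5.36%). All diabetic carMEC regions were shallower than all non-diabetic ones, and the part of depth in these counts was not tested.

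In neuronal cells the 100 probes had no common shift, with a median log2 fold change of -0.01, the same as over all probes tested, and 47 of them above 0. The test called 14 of the 100, 2 higher and 12 lower, beside 1.23% of the 4135 tested (0.145% higher and 1.09% lower). These shares include shallower probes than the 100, and the median SE over all tested was larger (0.34 against 0.23). DESeq2 called 6, 3 higher and 3 lower, and with total counts 15 were called, 4 higher and 11 lower. Without non-diabetic region 2 there were 2 calls and without diabetic region 3 there were 3, while leaving out any other neuronal region gave 12 to 14. In CPM 11 of the 100 were higher without overlap (6.29%) and 15 lower (7.4%). As in carMECs, all diabetic regions were shallower, and the part of depth was not tested.

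RTS0064941, rank 34, was lower in diabetic neuronal cells. It had 886, 716 and 691 CPM in the non-diabetic and 281, 205 and 452 CPM in the diabetic regions, where the lowest rested on 16 counts. Its log2 fold change was -1.23 (SE 0.23, n = 3 regions per group, edgeR adjusted p = 0.000103), and 13 of 14 alternatives called it, the exception being 1 model of all 24 regions (adjusted p = 0.937). RTS0080373, rank 88, was higher. It had 298, 212 and 278 CPM in the non-diabetic and 403, 871 and 529 CPM in the diabetic regions, a log2 fold change of 1.12 (SE 0.22, edgeR adjusted p = 0.0003), and 12 of 14 alternatives called it, with adjusted p from 0.000271 to 0.388. RTS0077009, called higher in renMECs, was also higher here, from 412 ± 57.9 to 761 ± 163 CPM (SD, n = 3), a log2 fold change of 0.83 (SE 0.21, edgeR adjusted p = 0.0148). It was called by 8 of 14 alternatives in neuronal cells, with adjusted p from 0.00503 to 0.751. In retMECs and carMECs its groups overlapped, with log2 fold changes of 0.14 and 0.21.

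**Figure D3:**
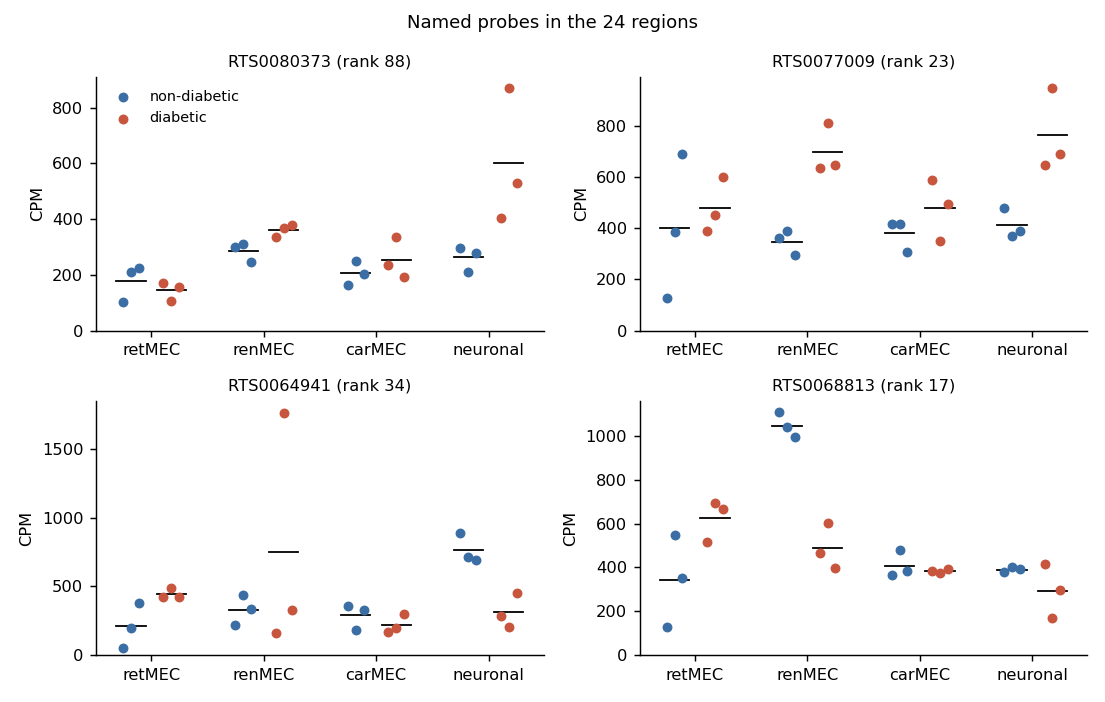
CPM of the 4 probes given by ID in the 24 regions. Each point is 1 region, blue non-diabetic and red diabetic, and black lines are means of 3 regions. RTS0068813 falls in renMECs from a mean of 1048 to 488 CPM, RTS0064941 falls in neuronal cells and has 1 renMEC region at 1759 CPM, and the diabetic neuronal regions of RTS0080373 and RTS0077009 lie above the non-diabetic ones.

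The summed share of the 100 was higher in 3 of the diabetic cell types with the most abundant probe included and overlapped without it. Their share of a region's counts was higher without overlap in diabetic renMECs (8.82 ± 0.23% to 10.6 ± 0.53%, SD, n = 3), carMECs (6.63 ± 0.38% to 7.87 ± 0.14%) and neuronal cells (9.16 ± 0.45% to 11.5 ± 0.44%). In retMECs the groups overlapped (6.48 ± 4.31% to 9.22 ± 0.58%, or from 8.83% over the non-diabetic regions without region 1). Divided by the upper quartile of each region, the sum of the 100 was higher without overlap in diabetic neuronal cells alone (2079 ± 154 to 2565 ± 282). It overlapped in renMECs (2267 ± 97 to 2335 ± 104) and carMECs (1423 ± 114 to 1530 ± 48). The upper quartile itself was higher without overlap in diabetic renMECs (39.0 to 45.2 CPM) and carMECs (46.7 to 51.5 CPM). Without rank 1, the other 99 probes held 5.10 ± 0.30% and 5.21 ± 0.35% in renMECs, 3.65 ± 0.31% and 3.86 ± 0.13% in carMECs and 5.31 ± 0.48% and 4.76 ± 0.16% in neuronal cells, and in each the groups overlapped.

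**Figure D4:**
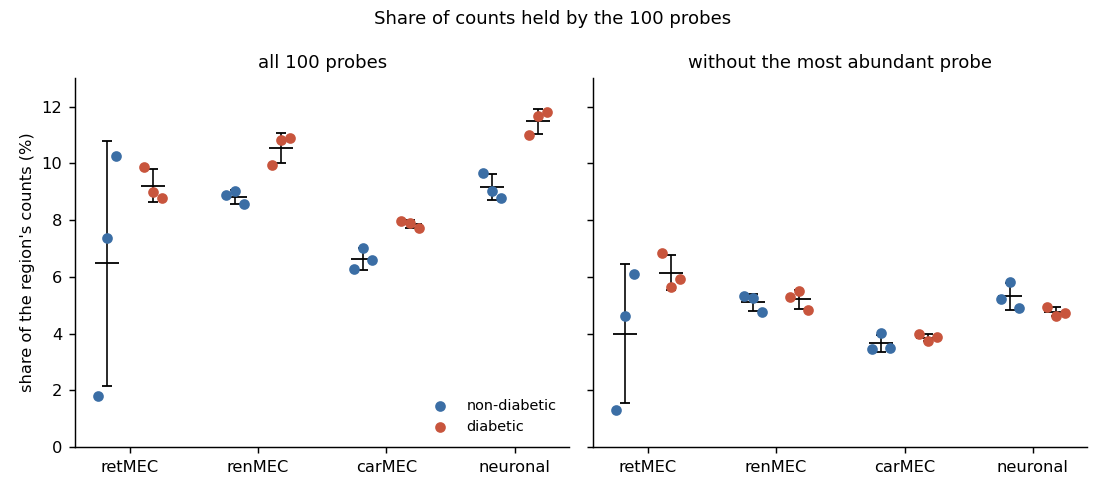
Share of each region's counts held by the 100 probes (left) and by the 99 without rank 1 (right), in percent. Points are regions, blue non-diabetic and red diabetic, with means and SD of 3 regions as bars. On the left the diabetic regions of renMECs, carMECs and neuronal cells lie above the non-diabetic ones, and on the right the groups overlap in every cell type, while non-diabetic retMEC region 1 lies lowest in both.

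Rank 1 alone held 3.72 ± 0.13% of counts in non-diabetic and 5.35 ± 0.69% in diabetic renMECs, 2.98 ± 0.14% and 4.02 ± 0.17% in carMECs, and 3.85 ± 0.62% and 6.73 ± 0.59% in neuronal cells, without overlap in any of the 3. In neuronal cells the regions were at 44470, 32134 and 38879 CPM against 60527, 70388 and 71124 CPM. In retMECs it had 4846, 27739 and 41823 CPM against 30436, 33250 and 28605 CPM, with no rise once region 1 is set aside. edgeR did not call it in any cell type, with log2 fold changes of 0.31 (SE 0.14, adjusted p = 0.276) in renMECs, 0.29 (SE 0.16, adjusted p = 0.676) in carMECs and 0.78 (SE 0.27, adjusted p = 0.166) in neuronal cells. Rank 2 was likewise higher without overlap in CPM in the same 3 cell types and was not called. Together with rank 71 these were the 3 of 100 probes higher without overlap in renMECs, carMECs and neuronal cells at once, beside 1.95% of the 257 detected probes, and 0 of the 100 were lower in all 3 (0.389%). These values are shares of a total, so a higher share of rank 1 by itself lowers the shares of all other probes.

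Log2 fold changes of the second run of IDs lay mostly below 0 in neuronal cells, carMECs and renMECs and above 0 in retMECs. In neuronal cells 8 of its 9 members had log2 fold changes below 0 and 7 were called lower, with a median of -0.92. In carMECs all 9 were below 0, 2 were called and the median was -0.66, and in renMECs 8 were below 0, 3 were called and the median was -0.65. With total counts alone the medians were -0.92, -0.52 and -0.44 and the calls 6, 1 and 0. The exception in neuronal cells and renMECs was rank 3, the most abundant of the run, with 0.36 and 0.09 and no call in any cell type. In retMECs all 9 were above 0 with a median of 1.22, none was called, and without non-diabetic region 1 the median was 0.76 with all 9 still above 0. The pattern was not particular to the run. Ranks 57 and 76, outside all runs, had 1.20 and 1.30 in retMECs and from -1.09 to -0.60 in the other cell types. As a list the 36 members outside runs had medians of 0.39 in retMECs, -0.26 in renMECs, -0.12 in carMECs and 0.02 in neuronal cells. The second run was picked after these values were seen and gets no test of its own.

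**Figure D5:**
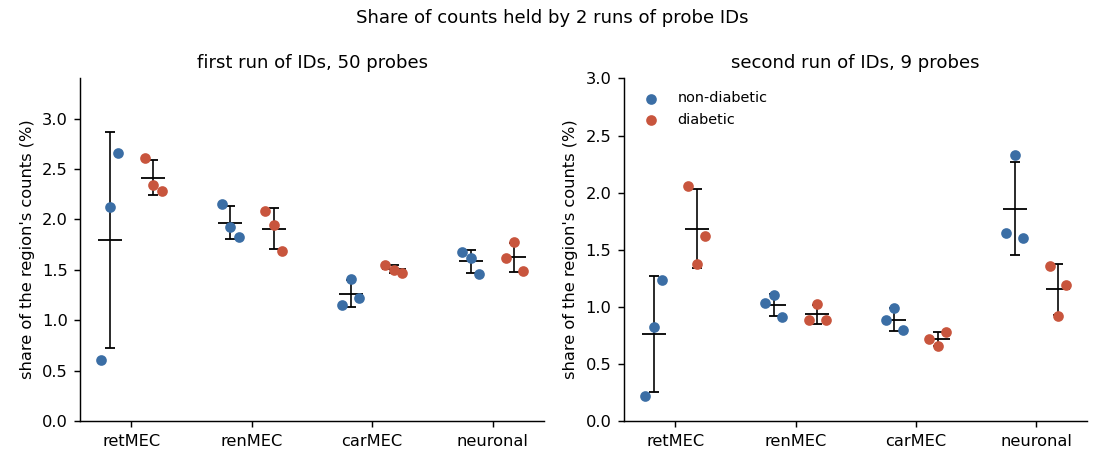
Share of each region's counts held by the first run of IDs (left, 50 probes) and the second (right, 9 probes), in percent. Points are regions, blue non-diabetic and red diabetic, with means and SD of 3 regions as bars. The second run is higher in diabetic retMECs and lower in diabetic carMECs and neuronal cells without overlap, while the first overlaps between groups in all cell types but carMECs.

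As a share of counts, the second run held 1.86 ± 0.41% in non-diabetic and 1.15 ± 0.22% in diabetic neuronal cells, 0.888 ± 0.098% and 0.718 ± 0.058% in carMECs and 0.759 ± 0.51% and 1.68 ± 0.35% in retMECs, each without overlap, and 1.02 ± 0.096% and 0.933 ± 0.082% in renMECs, where the groups overlapped. Without region 1 the non-diabetic retMEC regions held 1.03%, and the groups did not overlap either. Rank 5 shows the pattern by region. It had 394, 1284 and 1830 CPM in non-diabetic and 3662, 2542 and 2936 CPM in diabetic retMECs, and 3035, 4624 and 2809 CPM in non-diabetic and 1995, 1358 and 1794 CPM in diabetic neuronal cells. The diabetic retMEC regions thus reached into the range of the non-diabetic neuronal regions, and the groups overlapped in neither cell type. The first run had medians of 0.34 in retMECs, -0.26 in renMECs, 0.11 in carMECs and -0.01 in neuronal cells and 0 of 50 called in each, and without non-diabetic retMEC region 1 its retMEC median was -0.07. Its share was higher without overlap in diabetic carMECs (1.26 ± 0.13% to 1.51 ± 0.037%) and overlapped in the other cell types.

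The difference of the diabetes effect between cell types was tested in 1 model of the 8 groups. Of the 100 probes, 8 had a higher effect in retMECs than in neuronal cells (0.274% of the 11299 probes tested), 3 than in renMECs (0.168%) and 2 than in carMECs (0.106%), and 0 had a lower one. The 8 probes included all of those called in the other 2 contrasts, and 4 of them belonged to the second run. The largest difference was that of rank 78, 3.18 on the log2 scale between retMECs and neuronal cells (SE 0.55, edgeR adjusted p = 0.000561), and it was 2.76 without non-diabetic retMEC region 1 (adjusted p = 0.000104). Without this region 9 were called against neuronal cells (0.152% of probes tested), 6 against renMECs (0.211%) and 1 against carMECs (0.0592%). Of the 8 probes 6 were called again as higher in retMECs, and 3 others were. Over all 6 contrasts 1 probe was called without diabetic retMEC region 1, 3 without non-diabetic neuronal region 2, 4 without diabetic neuronal region 2 or 3 or non-diabetic renMEC region 3, 5 without diabetic carMEC region 1, any non-diabetic carMEC region or non-diabetic renMEC region 2, and 16 without non-diabetic retMEC region 3. Among the other 3 cell types 0 of the 100 probes were called (0.0531% of probes tested for renMECs against carMECs, 0.0708% for renMECs against neuronal cells and 0.00885% for carMECs against neuronal cells), with 2, 4 and 0 at an unadjusted p under 0.05, and without non-diabetic retMEC region 1 there was 1, for renMECs against carMECs (0.11%). DESeq2 called 15 of the 100 over the 6 contrasts. Contrasts with retMECs also compare the plates, and the labels do not say which regions share a mouse, which the p-values leave out of account. The model gives each probe 1 spread for all groups, while retMECs varied more. In fits by cell type the median fitted variation between regions was 0.57 in retMECs, non-diabetic region 1 included, and 0.15 to 0.23 in the other 3. For rank 78 the fit of retMECs alone gave an SE of 0.76, above the 0.55 of the contrast. The SEs and p-values of contrasts with retMECs are thus likely too small.

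Pooled over the 4 cell types, with cell type as a term, 0 of the 100 probes were called, beside 1.05% of the 11299 tested (0.0531% higher and 1% lower). Without adjustment 4 were higher and 1 lower at a p of 0.05, and DESeq2 called 1. The median log2 fold change was 0.04, beside -0.09 over all probes tested, and -0.08 beside -0.09 without non-diabetic retMEC region 1. Over the 18 regions of plate 2 alone, a fit added after the data were seen, 14 of the 100 were called, 2 higher and 12 lower, beside 2.98% of the 11319 tested (0.274% higher and 2.7% lower). Rank 1 was then called, with a log2 fold change of 0.46 (SE 0.12, edgeR adjusted p = 0.0117). Regions of 1 mouse count as independent in these pooled fits, so their p-values are too small. The shares beside the counts of calls include probes shallower than the 100.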

How the data were processed

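The authors deposited 1 list of whole-number counts per region. It was made with GeoMx NGS Pipeline 2.3.4, and the submitters' processing notes also name build mm10. Per the file headers, reads were trimmed, stitched and aligned to probe barcodes, and the headers give the quality of molecular identifiers. The counts are unscaled, and unlisted probes were taken as 0. Total counts of 28722 to 1451915 per region limit the precision of single probes. The 75th percentile, 2 to 53 counts, also sets the scale of a region. Where it is small, a step of 1 count moves all fold changes of that region together, and medians near 0 share this limit. Diabetic neuronal region 2, at 4 counts, had an upper-quartile factor of 1.15 and a TMM factor of 1.04.

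CPM, the choice of the 100 probes and shares were computed in Python 3.11.15. Tests used edgeR 4.0.16 (R 4.3.3): upper-quartile factors, a filter of low counts (minimum 10), robust quasi-likelihood fits, and calls at an adjusted p of 0.05 (Benjamini-Hochberg, over all probes tested). Within a cell type the fit held its 6 regions, and the pooled comparison and the contrasts between cell types all 24. Groups came from the labels. Whether the 3 regions of a group come from 3 mice is not given per region, so p-values measure the spread between regions. Alternatives were TMM, total counts, factors without the 100 probes, no filter, DESeq2 1.42.0 with its own filtering, the methods' test on scaled counts (p of 0.05 and fold change of 1.5), 1 model of all regions, a replicate block, other forms of the rule and leaving out each region. On simulated data the fits called unchanged probes above the nominal rate, most in retMECs and neuronal cells. The simulation gave every cell type the same spread between regions, smaller than that fitted in retMECs. The rate at the retMEC spread was not simulated.

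IDs are given for the probes with the smallest adjusted p, 2 in each direction. Ranks are given for the most abundant, the most and least even, those with the smallest and largest CV, and the called ones where 5 or fewer were called. Ranks 2, 71 and 78 as results and the runs of IDs were picked after their values were seen. The probes, lists and comparisons were chosen with earlier results of these data known.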

Additional observations from a re-analysis of the deposited data

Results flagged for a closer look

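The diabetes effect differed between retMECs and other cell types by the interaction contrasts of edgeR. Of the 100 probes, 8 had a higher effect in retMECs than in neuronal cells, 3 than in renMECs and 2 than in carMECs. Of all 11299 probes tested, 0.274%, 0.168% and 0.106% did. Without non-diabetic retMEC region 1, the library in which the 100 probes held the smallest share of counts, 9, 6 and 1 were called in the same contrasts, 1 of the 9 in the opposite direction. The shares over all probes tested were then 0.152%, 0.211% and 0.0592%. Without diabetic retMEC region 1, 1, 0 and 0 were called, beside 3, 6 and 0 of all 14450 probes tested. The model gives each probe 1 spread while retMECs varied more, so p-values of these contrasts are likely too small. The retMEC regions were on a plate of their own, and the part of plate was not tested.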

How the results depend on the processing

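The number of the 100 probes called varied with the processing. RTS0068813 in renMECs was called under all 14 alternative fits of edgeR and DESeq2. One model of all 24 regions called 1 probe in retMECs and 2 in renMECs, and 0 in both carMECs and neuronal cells. TMM factors gave 2 calls in carMECs with a median log2 fold change of 0.21, and 4 probes in the contrasts between cell types. Upper-quartile factors without the 100 probes gave 13 calls in renMECs and 2 in carMECs. Total counts gave medians of -0.055 in renMECs and 0.17 in carMECs, and total counts without rank 1, added after the data were seen, -0.031 and 0.18 with 2 calls in carMECs. Without a filter on low counts there was 1 call in carMECs and 7 in neuronal cells. DESeq2 gave 0 calls in carMECs and 6 in neuronal cells with medians of 0.23 and 0.12, 1 in the pooled comparison and 15 between cell types. The methods' test at its unadjusted threshold gave 3 calls in retMECs, 11 in renMECs, 8 in carMECs and 11 in neuronal cells, beside 6.16%, 6.84%, 6.44% and 6.21% of all probes, and after Benjamini-Hochberg 0 in renMECs, carMECs and neuronal cells. Over the 18 regions of plate 2 the pooled comparison gave 14 calls. The cause of these differences was not tested. Except for the methods' test, counts of calls here and below are given without the share over all probes of the same fit. They describe how the calls moved and do not set the 100 apart from other probes.

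A replicate block gave 12 calls for renMECs, 1 for carMECs, 8 for neuronal cells and 4 between cell types, with 0 in retMECs and in the pooled comparison. Diabetic and non-diabetic regions came from different mice, so same-numbered regions of a cell type could not share a mouse. The numbers were not used as pairs. Between the groups of a cell type, the deviations of same-numbered regions from their group means correlated between -0.117 and 0.177. In no cell type were all 3 pairs over 0.1. In renMECs all 3 were above 0. Regions of different organs were not compared in this way.

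Leaving out 1 region gave 2 to 10 calls for renMECs, 0 to 6 for carMECs, 2 to 14 for neuronal cells and 1 to 16 between cell types. The medians ran from -0.03 to 0.82 in retMECs, -0.34 to -0.20 in renMECs, -0.06 to 0.09 in carMECs, -0.07 to 0.03 in neuronal cells and -0.08 to 0.08 in the pooled comparison.

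Of the 100 probes, 57 passed an evenness limit of 2, 63 had 10 or more counts in all 24 regions, and 51 were kept over the diabetic regions only. In retMECs the median SE of the 100 log2 fold changes was 0.78, with a CV in the non-diabetic group of 60.8% where counting error gives 17.0%. Over the 2 non-diabetic regions without region 1 the CV was 21.1%.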
